A study of Mus musculus with 45 samples.

Results

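The nuclear-encoded subunits of mitochondrial respiratory chain complexes I to IV were followed in 3 mononuclear phagocyte populations of the mouse lung before and after lipopolysaccharide (LPS), the bacterial product sensed through TLR4. Members were the rows of the transcript table whose symbol is Ndufa, Ndufb, Ndufc, Ndufs or Ndufv with a number (without Ndufa4), Sdha to Sdhd, any Uqcr symbol, Cyc1, or any symbol opening with Cox4 to Cox8. This gave 66 of 23594 rows: 35 of complex I, 4 of complex II, 9 of complex III and 18 of complex IV. All libraries came from lungs of C57BL/6J mice, with cells sorted by flow cytometry and RNA of small cell numbers amplified by a Smart-seq2 type protocol. The groups were inflammatory monocytes (iMo) and interstitial macrophages (IM), with 2 libraries each at 2, 6 and 20h after intraperitoneal (ip) LPS and at 0h, and alveolar macrophages (AM), with 2, 3 and 2 libraries at 2, 6 and 20h and 4 libraries at 0h. No LPS was given in the 0h groups, and the labels record no genetic change in any group. The series holds 45 libraries in 21 groups, of which 18 libraries follow intranasal LPS. In those 18 columns the row names did not match the values, with Cox4i1 at 0 to 2.17 TPM against 274 to 1886 TPM in the other 27, so the work used the 27 libraries of 0h and ip LPS.

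The respiratory chain passes electrons from NADH (complex I) and succinate (complex II) through complex III and cytochrome c to oxygen at complex IV, and complexes I, III and IV pump protons that drive ATP synthase. Complex I has a small catalytic core, which holds the flavin and the iron-sulfur clusters, and many accessory subunits that build and stabilise it, while complexes III and IV add small nuclear-encoded subunits to a catalytic centre partly encoded by mitochondrial DNA. Several complex IV subunits exist as isoforms typical of a tissue. In mouse macrophages, LPS is known to move metabolism away from oxidative phosphorylation and towards glycolysis.

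Levels are TPM (length-scaled transcript abundance per library) as deposited. Fold changes are differences of log2(TPM+1), which understate changes of low genes. A gene was tested if 2 or more of the 27 libraries had 5 TPM or above, and the 8937 that did were fitted in 1 limma model of 12 groups, and a gene was called at a Benjamini-Hochberg adjusted p under 0.05 over all tested genes. Of the members 62 passed this filter, and Cox6a2, Cox7b2, Cox8b and Cox8c did not. TPM keeps no read depth, and the labels do not say that replicates are separate animals, so the p-values refer only to the spread of these libraries. Groups of 2 libraries often separate by chance, so a lack of overlap between 2 of them only describes their values. The share of all genes without overlap was not counted.

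The titles carry 3 codes of digits, called here the first, the second and the third code in numerical order, and these move with time. The third code holds the iMo and IM libraries of 0h and 3 of the 4 AM libraries of 0h, while the first and the second code hold those after ip LPS and 1 AM library of 0h. Time after LPS and code therefore cannot be told apart within iMo or IM when a time is set against 0h, whereas both iMo groups of 2h and 20h share the second code, as do 3 of the 4 IM libraries of these times. The sorted cells were also checked against marker lists. Summed TPM of 11 alveolar macrophage markers ran from 53.4 to 280 in iMo and 94.3 to 310 in IM, against 1440 to 4135 in AM. In the IM libraries 10 neutrophil markers summed to 19759.6 to 22400.2 TPM at 2h, 17282 to 56927 at 6h and 28250 to 34930.2 at 20h, against 11237 to 22575 at 0h. Summed TPM of 11 interstitial macrophage markers was 430 to 1163 in IM at 2h, 483 to 556 at 6h and 2041 to 2219 at 20h, against 6231 to 7738 at 0h. In iMo the neutrophil markers summed to 336 to 673, 1754 to 3061 and 2904 to 2927 TPM at 2, 6 and 20h, against 135 to 215 at 0h. In iMo the interstitial macrophage markers summed to 639 to 1112 TPM at 2h, a range that overlapped that of IM at 2h. The 8 classical monocyte markers summed to 5079 to 6876 TPM at 2h, 4111 to 5194 at 6h and 2231 to 3015 at 20h in iMo, against 8454 to 12921 at 0h. In IM they summed to 3128 to 6235 TPM at 2h, 2174 to 5944 at 6h and 2631 to 2954 at 20h, against 3171 to 6247 at 0h. In AM at 20h the interstitial macrophage markers summed to 3914 TPM in 1 library, against 148 to 306 TPM at 0h. The part of these markers in the results was not tested, and in bulk samples fewer cells of a type and less RNA per cell cannot be told apart.

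The subunits as a group were low in iMo and IM at 2h and 6h after LPS, and varied less by time in AM. The 66 members together made up 0.883 and 0.843% of the column sum in iMo at 2h, 1.16 and 0.916% at 6h and 2.11 and 2.01% at 20h, against 2.27 and 2.83% at 0h. In IM they made up 0.768 and 0.551% at 2h, 0.814 and 0.933% at 6h and 1.60 and 1.72% at 20h, against 2.11 and 2.17% at 0h. In both cell types the libraries of 2h and 6h lay below all those of 0h and 20h. In AM the share was 1.56 and 1.69% at 2h, 1.60, 1.66 and 1.91% at 6h and 1.79 and 1.37% at 20h, against 1.42, 2.40, 1.54 and 2.09% at 0h, and the AM groups overlapped. Within the second code at 2h the share was 0.883 and 0.843% in iMo and 0.551% in IM, against 1.69% in AM. Within the first code the 2 IM libraries of 2h and 6h had 0.768 and 0.814%, against 1.56 and 1.60% in the AM libraries of the same times and 1.42% in AM at 0h.

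**Figure D1:**
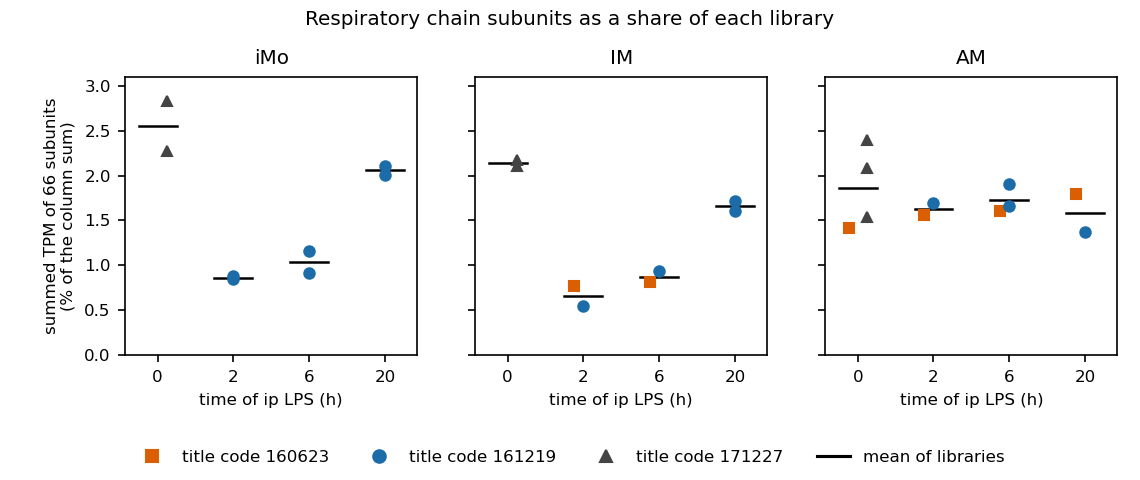
Summed TPM of the 66 subunits as a percentage of the column sum (vertical axis) by time of ip LPS in h (horizontal axis) in iMo, IM and AM; points are libraries, marked by title code, and bars are group means. The iMo and IM libraries of 2h and 6h lie between 0.551 and 1.16%, below every AM library, whose lowest value is 1.37%.

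In iMo most subunits were called lower at 2h and 6h than at 0h, and 12 of 62 at 20h. Time and title code cannot be told apart here, and 0 members were called at 2, 6 or 20h with the replicate block, which cannot separate them either. At 2h limma called 0 of 62 members higher and 44 lower, where 8.41% of all tested genes were called higher and 24.0% lower. The members' median fold change was -1.87 on the log2 scale, which is -1.45 relative to the all-gene median of -0.42. At 6h 0 were higher and 38 lower, against 5.95% and 23.1% of all genes, with a median of -1.09 relative to an all-gene median of -0.48, and rescaling TPM without Rn45s and Lars2 gave 2 higher and 23 lower of 64 members then tested. At 20h 0 were higher and 12 lower, against 7.39% and 14.8% of all genes, with a relative median of -0.38, and this direction turned to 7 higher and 1 lower when TPM were rescaled without Rn45s and Lars2, of which Rn45s alone held 4.33% to 33.3% of the summed TPM of a library, and to 5 higher and 4 lower under quantile normalization. The iMo library of 0h B171227 weighed on the later counts, since without it 21 members were called at 6h and 1 at 20h; without the 20h library A161219 6 were called at 20h, and without B161219 3.

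In IM most subunits fell at 2h, and at 20h 4 of 62 were called. At 2h 0 members were called higher and 48 lower, where 7.99% of all genes were called higher and 40.8% lower, with a median fold change of -1.71, or -0.92 relative to an all-gene median of -0.79. At 6h 0 were higher and 30 lower, against 4.63% and 20.8% of all genes, with a relative median of -0.68; 6 were called without either of the 0h libraries in turn, and 8 without the 6h library of the first code. At 20h 1 was higher and 3 were lower, against 4.05% and 8.39% of all genes, with a relative median of -0.27, and 1 or 2 were called when any 1 of the 4 libraries was left out. After centring each library on its all-gene median, 31 members were called at 2h, 1 higher and 30 lower, and 15 at 6h, all lower. When the model also held the title code, 6 members were called in IM at 2h, 1 at 6h and 1 at 20h, and 2, 3 and 1 in iMo. In that model the third code is set apart only through the AM libraries of 0h. The model therefore cannot separate code from time in IM or iMo.

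In AM no subunit was called at any time after ip LPS. At 2h 0 members were called in either direction by limma, where 0.134% of all genes were called higher and 0% lower, and 0 members had an unadjusted p under 0.05. At 6h 0 were called, against 0.929% of all genes higher and 0.369% lower, with 2 at an unadjusted p under 0.05, and with array weights 7 were called lower. At 20h 0 were called, against 0.0448% of all genes higher and 0.0671% lower, with 5 at an unadjusted p under 0.05. The other alternatives run also gave 0 members in AM at each time. The members' medians relative to all genes were -0.11, -0.10 and -0.21 at 2, 6 and 20h. The difference between cell types was tested itself: the ip response over 2, 6 and 20h differed from that of AM for 25 members in iMo (40.3%) and 18 in IM (29.0%) by the F test, where 17.3% and 26.5% of all genes were called, so the share in IM was near that of all genes. The title codes are not spread alike over the cell types at 0h and after LPS. Code and response therefore cannot be fully told apart in this test.

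**Figure D2:**
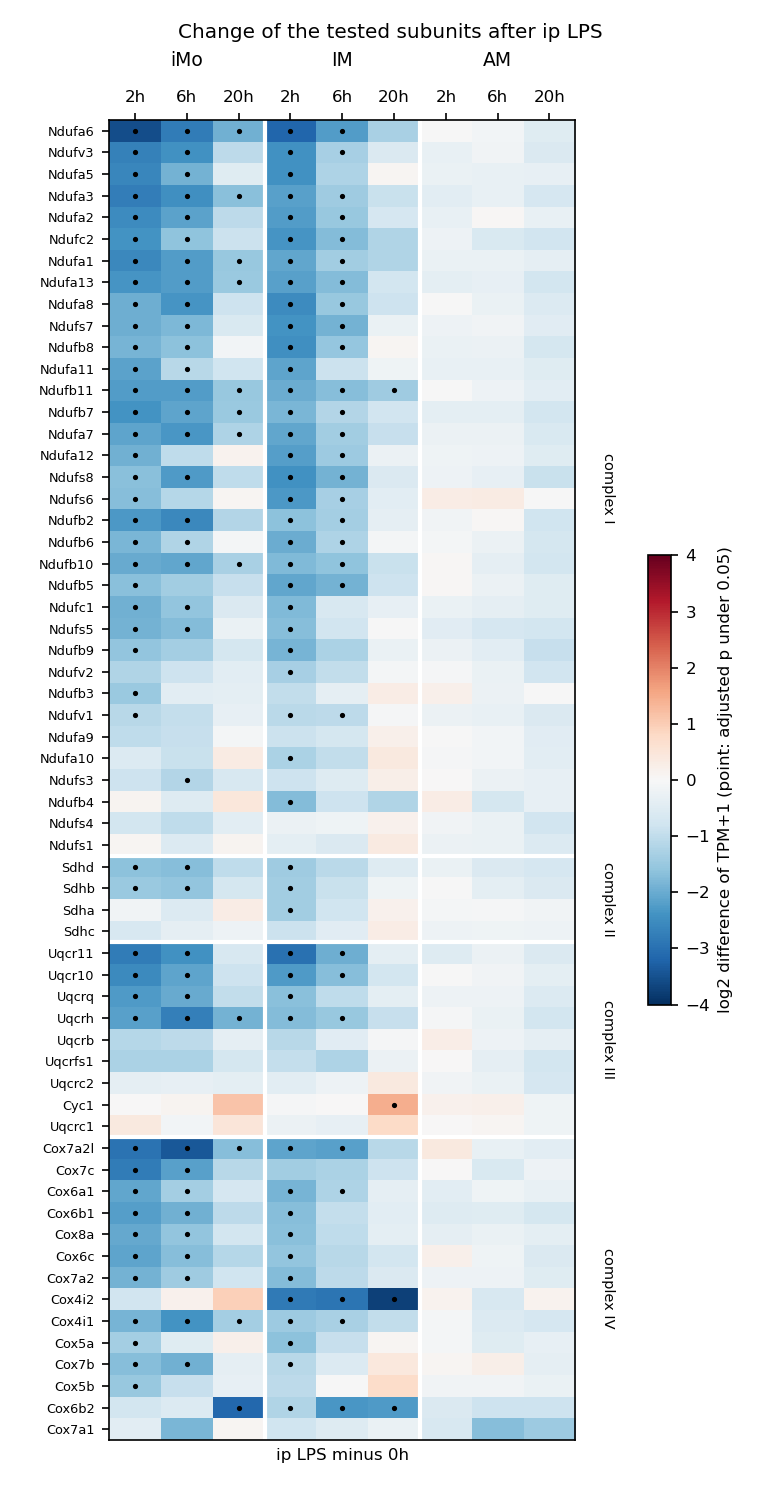
Log2 difference of TPM+1 between each time of ip LPS and 0h (colour) for the tested subunits reported by name (rows, by complex) in iMo, IM and AM (columns, 2, 6 and 20h); a point marks an adjusted p under 0.05. Points fill most rows in iMo at 2h and 6h and in IM at 2h, and none stand in the AM columns.

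**Figure D3:**
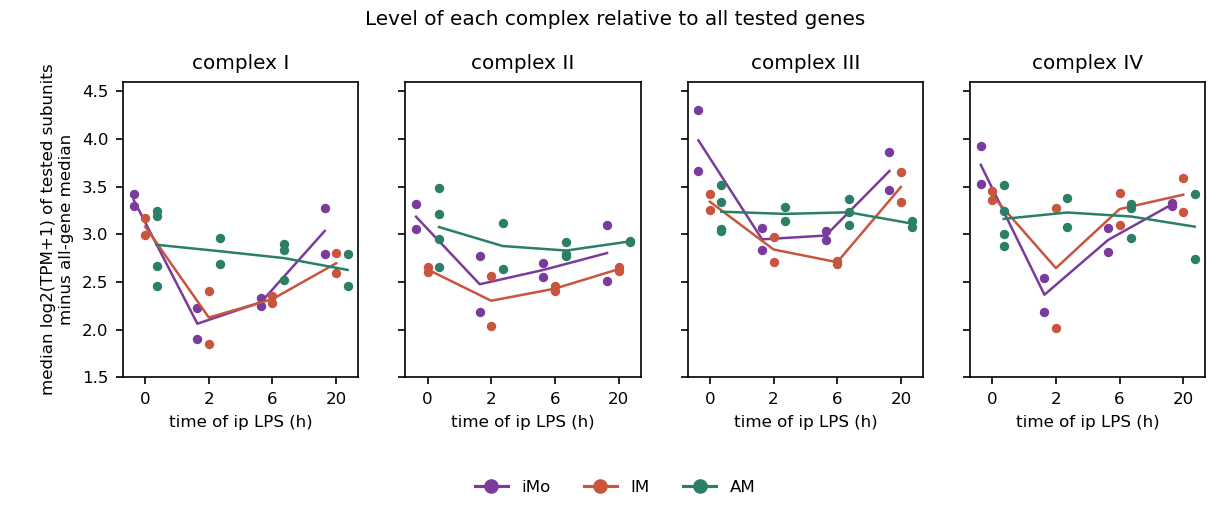
Median log2(TPM+1) of the tested subunits of each complex minus the all-gene median of the library (vertical axis) by time of ip LPS in h; points are libraries and lines join group means of iMo, IM and AM. In every panel the mean line of iMo is lower at 2h than at 0h, and for complex I the iMo libraries lie at 1.90 and 2.22 at 2h, against 3.30 and 3.42 at 0h.

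Complex I, with the most members, held the most calls, though its share at 2h in iMo was close to that of complex IV (11 of 14). Of its 35 subunits, 27 were lower in iMo at 2h, 23 at 6h and 8 at 20h, and 30, 22 and 1 in IM at the same times. Over all tested genes 24.0, 23.1 and 14.8% were called lower in iMo at these times, and 40.8, 20.8 and 8.39% in IM. The IM count at 20h was thus below the share of all genes. Ndufs1, which carries iron-sulfur clusters, had 20.8 and 19.5 TPM in iMo at 2h, against 20.5 and 18.1 TPM at 0h, and was not called (log2 fold change 0.06, SE 0.50, adjusted p = 0.937). Ndufs7, which carries the last iron-sulfur cluster before ubiquinone, had 29.8 and 56.2 TPM in IM at 2h, 47.2 and 71.7 at 6h and 160.4 and 204 at 20h, against 204 and 237 at 0h. It fell at 2h (-2.40, SE 0.49, adjusted p = 0.000449), and both 20h libraries lay above those of 2h.

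Ndufa6, an accessory LYR-motif subunit that binds the mitochondrial acyl carrier protein, fell further than any other member in iMo and in IM at 2h. In iMo it had 43.8 and 49.7 TPM at 2h, 82.1 and 75.5 at 6h and 167 and 130.1 at 20h, against 454 and 683 at 0h, and no library after LPS overlapped those of 0h. The fold changes were -3.55 (SE 0.47, adjusted p = 7.71e-06) at 2h, -2.81 (SE 0.47, adjusted p = 0.000144) at 6h and -1.91 (SE 0.47, adjusted p = 0.00574) at 20h; the last was no longer called without the 0h library B171227 (adjusted p = 0.0811) or the 20h library B161219 (0.0711). In IM it had 61.4 and 31.4 TPM at 2h, 75.0 and 97.3 at 6h and 162 and 164 at 20h, against 432 and 374 at 0h. It fell in IM by 3.16 on the log2 scale at 2h (SE 0.47, adjusted p = 1.55e-05) and by 2.22 at 6h (adjusted p = 0.00137). When the model held the title code the 2h changes were -2.68 in iMo (adjusted p = 0.0222) and -2.42 in IM (adjusted p = 0.0162), and the 6h changes were no longer called. In AM the values were 168 and 219 TPM at 2h, 175, 152 and 221 at 6h and 215 and 91.4 at 20h, against 141, 333, 115 and 266 at 0h, with overlap at each time and a fold change of -0.02 at 2h (SE 0.41). The Ndufa6 promoter is shown because this gene had the largest fall. From RefSeq on GRCm38.p6 (250 bases before to 50 after the annotated start), it lies at chr15:82354242-82354541 on the minus strand. Capitals mark its single match to the NRF1 motif (GCGCA, then any base, then GCGC). The match is on the strand opposite to the one printed, so the capitals read GCGC, then any base, then TGCGC.
Ndufa6: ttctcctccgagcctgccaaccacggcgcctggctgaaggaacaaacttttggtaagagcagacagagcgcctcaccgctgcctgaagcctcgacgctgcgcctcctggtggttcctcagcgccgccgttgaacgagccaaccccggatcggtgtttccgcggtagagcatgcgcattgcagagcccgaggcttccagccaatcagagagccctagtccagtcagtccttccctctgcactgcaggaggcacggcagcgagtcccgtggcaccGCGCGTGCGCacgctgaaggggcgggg

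Other accessory subunits moved with it. Ndufa3, the complex I member with the highest mean level, had 125 and 117 TPM in iMo at 2h, 175 and 131 at 6h and 208 and 325 at 20h, against 708 and 972 at 0h, and fell at each of these times (at 2h -2.77, SE 0.47, adjusted p = 0.000132). IM libraries had 155 and 89.9 TPM at 2h, 138 and 287 at 6h and 234 and 351 at 20h, against 505 and 567 at 0h, with the call at 2h and 6h but not at 20h (adjusted p = 0.243). Ndufa8, an accessory subunit on the intermembrane space side, had 18.8 and 20.8 TPM in IM at 2h, against 110.0 and 126 at 0h (-2.51, SE 0.48, adjusted p = 0.000213). In iMo Ndufa8 had 36.2 and 41.0 TPM at 2h and 40.3 and 19.9 at 6h, against 139.6 and 163 at 0h, and it fell at both times. Ndufb2, a membrane arm subunit, had 27.2 and 7.82 TPM in iMo at 6h, against 80.2 and 109 at 0h (-2.59, SE 0.50, adjusted p = 0.00054). Ndufb11, another membrane arm subunit, was lower in IM at 20h too, with 43.8 and 44.2 TPM at 20h against 125 and 114 at 0h (-1.42, SE 0.46, adjusted p = 0.0425), although this call was lost when any 1 of those 4 libraries was left out (adjusted p 0.153 to 0.220). In iMo Ndufb11 had 65.0 and 41.2 TPM at 20h, against 127 and 179 at 0h (-1.53, SE 0.46, adjusted p = 0.02). Ndufv3, a small subunit of the NADH-oxidising module, had 11.7 and 8.31 TPM in iMo at 2h, against 62.0 and 79.4 at 0h, and 11.7 and 4.56 TPM in IM at 2h, against 41.6 and 46.2 at 0h, and it fell in both. Its AM libraries had 39.9 and 46.2 TPM at 2h, against 31.6, 67.6, 46.9 and 81.3 at 0h.

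Complex II, the 4-subunit succinate dehydrogenase shared with the citric acid cycle, had 2 of its 4 subunits called lower in iMo at 2h and 3 in IM. Beside these, 24.0% of all genes were called lower in iMo and 40.8% in IM, and 4 members are too few to read against such shares. Sdha, the flavoprotein, had 29.6 and 24.7 TPM in iMo at 2h, 25.8 and 15.2 at 6h and 36.2 and 38.0 at 20h, against 32.1 and 27.5 at 0h, and no call was made at these times. In IM Sdha had 9.07 and 16.1 TPM at 2h, 18.7 and 19.0 at 6h and 28.3 and 50.5 at 20h, against 31.6 and 35.5 at 0h. It fell at 2h (-1.39, SE 0.39, adjusted p = 0.00529) and rose at 20h against 2h (1.56, SE 0.39, adjusted p = 0.00332), while the difference between the ip responses of iMo and IM was not called for it (F test, adjusted p = 0.531). Sdhb, the iron-sulfur subunit, had 82.7 and 104 TPM in iMo at 2h, 109 and 69.3 at 6h and 155 and 161 at 20h, against 237 and 286 at 0h. The IM libraries had 49.2 and 91.0 TPM at 2h, 77.1 and 118 at 6h and 150.0 and 170.0 at 20h, against 181 and 175 at 0h. Sdhb fell in iMo at 2h (-1.48, adjusted p = 0.0172) and 6h (-1.57, adjusted p = 0.0135) and in IM at 2h (-1.40, adjusted p = 0.016). Sdhc, a membrane anchor, had 42.2 and 64.1 TPM in iMo at 2h, against 78.5 and 84.4 at 0h, and 17.0 and 51.4 TPM in IM at 2h, against 59.1 and 50.1 at 0h, and was not called in either. Sdhd, the other anchor, had 40.9 and 44.3 TPM in iMo at 2h, against 123 and 146 at 0h, and 24.9 and 44.3 TPM in IM at 2h, against 81.5 and 99.5 at 0h. Sdhd fell in both, by 1.63 in iMo (adjusted p = 0.00831) and by 1.41 in IM (adjusted p = 0.0137). In AM at 2h the 4 genes had log2 fold changes of -0.25 to -0.02.

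In complex III the members called lower in iMo and IM at 2h were small subunits. The cytochrome Cyc1, the Rieske protein Uqcrfs1 and the core proteins Uqcrc1 and Uqcrc2 had 0 of 4 called lower in iMo or IM at 2h or 6h, with medians of -0.17 in iMo and -0.33 in IM at 2h. Within this set Uqcrfs1 had lower values without a call. It had 82.8 and 91.7 TPM in iMo at 2h, against 201 and 222 at 0h, and 40.2 and 89.8 in IM, against 106 and 132. Uqcrc2 had 56.5 and 51.6 TPM in iMo at 2h, against 69.0 and 70.3, and 17.0 and 39.9 in IM, against 31.0 and 40.2. Values of Cyc1 and Uqcrc1 are given below. The 5 small subunits Uqcrb, Uqcrh, Uqcrq, Uqcr10 and Uqcr11 had 4 of 5 lower at 2h in both cell types, with medians of -2.27 in iMo and -1.72 in IM. At 2h 24.0% of all genes were called lower in iMo and 40.8% in IM. The median transcript length was 1586.5 nt in the larger set and 535 nt in the small set, the grouping was chosen after the values were seen, and the difference was not tested. Uqcr11 had 39.3 and 31.5 TPM in iMo at 2h, 62.7 and 33.8 at 6h and 141 and 181 at 20h, against 198 and 315 at 0h. Its IM libraries had 32.4 and 13.7 TPM at 2h, 44.3 and 45.1 at 6h and 101 and 173 at 20h, against 198 and 155 at 0h. The falls at 2h were -2.79 in iMo (SE 0.47, adjusted p = 0.000112) and -2.99 in IM (SE 0.47, adjusted p = 2.9e-05), with no overlap of libraries. In AM Uqcr11 had 129 and 129 TPM at 2h, 142, 161 and 164 at 6h and 126 and 118 at 20h, against 108, 308, 133 and 255 at 0h, with overlap at every time. Uqcrh, the hinge protein between cytochrome c1 and cytochrome c, had 94.2 and 84.3 TPM in iMo at 2h, 90.7 and 40.5 at 6h and 123 and 96.7 at 20h, against 348 and 472 at 0h, and fell at each time, by 2.17, 2.72 and 1.89 (adjusted p = 0.000582, 8.73e-05 and 0.00353). The call at 20h was lost without the 0h library B171227 (adjusted p = 0.0536) or the 20h library B161219 (0.0534). Uqcr10, the complex III member with the highest mean level, had 65.8 and 65.4 TPM in iMo at 2h, against 321 and 459.6 at 0h, and 95.4 and 52.8 TPM in IM at 2h, against 398 and 294 at 0h, and it fell in both.

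Uqcrc1 and Cyc1 of complex III, like Uqcrc2 and Uqcrfs1, were not called lower than at 0h at any time. Uqcrc1, a core protein related to mitochondrial processing peptidases, had 141 and 144 TPM in iMo at 2h, 99.8 and 99.9 at 6h and 162 and 141 at 20h, against 104 and 112 at 0h, and none of these times was called (at 2h 0.40, SE 0.39, adjusted p = 0.457). In IM it had 49.2 and 71.8 TPM at 2h, 47.1 and 68.2 at 6h and 99.6 and 145 at 20h, against 71.4 and 70.4 at 0h, with 1 library of 2h above and 1 below those of 0h. Cyc1, cytochrome c1, had 31.0 and 55.2 TPM in IM at 2h, 37.8 and 50.1 at 6h and 97.5 and 144 at 20h, against 39.8 and 46.0 at 0h. It was the only member that rose against 0h in any cell type (IM at 20h, 1.45, SE 0.45, adjusted p = 0.0346), and the call was lost when any 1 of those 4 libraries was left out (adjusted p 0.0642 to 0.278). In iMo Cyc1 had 70.3 and 73.5 TPM at 2h, 74.1 and 81.0 at 6h and 144 and 170.2 at 20h, against 79.7 and 63.7 at 0h. Both 20h libraries lay above those of 0h, but the difference was not called (1.13, SE 0.45, adjusted p = 0.0741). The promoters of Uqcr11 and Uqcrc1 are shown as a subunit that fell at 2h and one that was not called, from RefSeq on GRCm38.p6. Uqcr11 lies at chr10:80406772-80407071 on the minus strand, with a match to the ETS motif CCGGAAG in capitals, and Uqcrc1 at chr9:108936398-108936697 on the plus strand, with 2 matches to the NRF1 motif in capitals. The first of these NRF1 matches is on the strand opposite to the one printed.
Uqcr11: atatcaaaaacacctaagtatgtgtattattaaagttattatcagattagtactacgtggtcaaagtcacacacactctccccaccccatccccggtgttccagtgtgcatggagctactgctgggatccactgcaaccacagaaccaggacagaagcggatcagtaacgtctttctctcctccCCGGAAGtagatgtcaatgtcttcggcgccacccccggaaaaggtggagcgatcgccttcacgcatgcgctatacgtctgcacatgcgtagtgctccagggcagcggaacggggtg
Uqcrc1: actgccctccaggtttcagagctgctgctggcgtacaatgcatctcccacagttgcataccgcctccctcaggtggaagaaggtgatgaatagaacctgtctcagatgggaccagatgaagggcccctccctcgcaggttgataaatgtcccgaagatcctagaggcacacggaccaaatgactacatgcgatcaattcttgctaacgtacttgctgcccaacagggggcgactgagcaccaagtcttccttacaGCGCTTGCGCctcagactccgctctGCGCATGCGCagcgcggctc

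Of the 14 tested complex IV members, 11 were lower in iMo at 2h, 9 at 6h and 3 at 20h, and 11, 5 and 2 in IM. The shares of all genes called lower were 24.0, 23.1 and 14.8% in iMo and 40.8, 20.8 and 8.39% in IM. Cox4i1, the ubiquitous isoform of subunit 4 and the member with the highest mean level, had 372 and 453 TPM in iMo at 2h, 306 and 274 at 6h and 621 and 545 at 20h, against 1202 and 1886 at 0h. In IM it had 425 and 302 TPM at 2h, 421 and 382 at 6h and 469 and 542 at 20h, against 977 and 1008 at 0h. It fell in iMo at 2h (-1.87, SE 0.37, adjusted p = 0.000461), at 6h (-2.38, adjusted p = 5.65e-05) and at 20h (-1.37, SE 0.37, adjusted p = 0.00981). It also fell in IM at 2h (-1.47, SE 0.37, adjusted p = 0.00221), and libraries did not overlap in any of these. In AM Cox4i1 had 790.0 and 1005 TPM at 2h, 753, 519 and 689 at 6h and 719 and 473 at 20h, against 712, 1152, 836 and 1118 at 0h, and no time was called. The ubiquitous isoforms Cox6a1, Cox6b1, Cox7a2 and Cox8a fell in iMo and IM at 2h, by 1.68 to 2.21. Cox6a1 had 173 and 165 TPM in iMo at 2h, against 608 and 846 at 0h, and 197 and 119.8 TPM in IM at 2h, against 578 and 535 at 0h. Cox6b1 had 117 and 129 TPM in iMo at 2h, against 489 and 664 at 0h, and 189 and 74.9 TPM in IM at 2h, against 415 and 365 at 0h. The 2h libraries of Cox6a1 and Cox6b1 lay below those of 0h in both cell types. Cox7a2 had 51.2 and 58.3 TPM in iMo at 2h, against 183 and 229.6 at 0h, and 64.8 and 42.9 TPM in IM at 2h, against 175 and 183 at 0h. Cox8a had 153 and 163 TPM in iMo at 2h, against 514 and 839.6 at 0h, and 201 and 119 TPM in IM at 2h, against 467 and 529 at 0h. For all 4 genes no library of 2h overlapped one of 0h in either cell type, though how many of all genes did the same was not counted.

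Cox7a2l, which encodes SCAF1, known for joining complexes III and IV into supercomplexes in mouse strains with its long form, while C57BL/6J carries a short form, showed the largest fall of complex IV members in iMo at 2h and 6h. It had 17.4 and 11.0 TPM at 2h, 21.4 and 4.25 at 6h and 39.4 and 29.4 at 20h, against 102 and 127 at 0h, with no overlap. The fold changes were -2.95 (SE 0.54, adjusted p = 0.000276) at 2h, -3.40 (SE 0.54, adjusted p = 8.76e-05) at 6h and -1.71 (SE 0.54, adjusted p = 0.0273) at 20h. The 20h call was lost when any 1 of those 4 libraries was left out (adjusted p 0.0686 to 0.176), and when the model held the title code the 2h change of -2.73 was not called (adjusted p = 0.065). In IM Cox7a2l had 12.99 and 24.3 TPM at 2h, 18.1 and 16.4 at 6h and 38.1 and 35.6 at 20h, against 73.2 and 89.2 at 0h. It fell at 2h (-2.12, SE 0.54, adjusted p = 0.00282) and 6h (-2.16, SE 0.54, adjusted p = 0.00562), the 6h call being lost without the 0h library B171227 (adjusted p = 0.0578). In AM it had 53.8 and 113 TPM at 2h, 43.5, 45.4 and 55.2 at 6h and 70.3 and 26.8 at 20h, against 49.1, 98.4, 41.9 and 60.4 at 0h. The 2h libraries of AM lay within the range of 0h or above it. Cox7c, which has near-identical processed copies in the genome that could share its reads, and was listed at no more than 11.9 TPM, had 0 and 1.09 TPM in iMo at 2h, against 6.90 and 11.9 at 0h (-2.81, SE 0.60, adjusted p = 0.00104), and its values are uncertain. The promoter of Cox7a2l is shown for its fall in iMo. It lies at chr17:83514284-83514583 on the minus strand (RefSeq, GRCm38.p6), and none of the NRF1, ETS or YY1 motifs searched was found in it, so it has no capitals.
Cox7a2l: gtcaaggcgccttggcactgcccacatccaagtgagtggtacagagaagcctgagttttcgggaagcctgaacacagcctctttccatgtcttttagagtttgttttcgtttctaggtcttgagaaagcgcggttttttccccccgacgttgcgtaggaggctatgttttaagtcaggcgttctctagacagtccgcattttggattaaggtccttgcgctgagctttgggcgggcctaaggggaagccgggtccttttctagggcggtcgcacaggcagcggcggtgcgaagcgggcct

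Isoforms of complex IV known from particular tissues differed between the cell types at 0h. Cox6b2, known as the testis isoform of subunit 6b, was highest in AM. It had 5.26 and 3.46 TPM in iMo at 2h, 7.54 and 3.25 at 6h and was listed at 0 in both libraries of 20h, against 7.66 and 7.88 at 0h. In IM it had 3.90 and 2.78 TPM at 2h, 1.39 and 0.599 at 6h and 0.785 and 1.37 at 20h, against 12.2 and 6.28 at 0h. In AM it had 29.3 and 28.1 TPM at 2h, 28.5, 23.5 and 21.0 at 6h and 32.2 and 17.3 at 20h, against 37.4, 51.1, 51.6 and 35.4 at 0h. Every AM library lay above every iMo and IM library, and the AM libraries after LPS lay below those of 0h without a call (at 6h -0.82, SE 0.29, adjusted p = 0.255). In IM Cox6b2 fell at 2h (-1.19, adjusted p = 0.0127), 6h (-2.33, adjusted p = 8.48e-05) and 20h (-2.25, adjusted p = 0.000163), and in iMo it was called lower at 20h, for which no fold is given. At 0h it was lower in iMo than in AM by 2.33 (SE 0.33, adjusted p = 4.41e-06) and lower in IM than in AM by 2.17 (SE 0.33, adjusted p = 1.31e-05). The promoter of Cox6b2 is shown as that of the member that differed most from AM over the ip times in both iMo and IM. It lies at chr7:4753045-4753344 on the minus strand (RefSeq, GRCm38.p6), with none of the 3 motifs and so no capitals.
Cox6b2: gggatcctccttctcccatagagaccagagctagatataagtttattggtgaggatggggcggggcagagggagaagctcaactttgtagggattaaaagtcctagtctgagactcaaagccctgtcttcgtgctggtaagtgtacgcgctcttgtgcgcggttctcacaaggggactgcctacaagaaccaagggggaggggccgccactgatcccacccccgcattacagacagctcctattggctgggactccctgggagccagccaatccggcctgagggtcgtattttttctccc

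Cox4i2, the isoform of subunit 4 known from lung and as responsive to low oxygen, was seen above a few TPM only in IM at 0h. It reached 5 TPM only in the 2 libraries of that group, and so passed the filter only through them. Its calls that involve IM at 0h, here and below, follow in part from that filter and lend no support of their own. The IM libraries had 0.910 and 0.866 TPM at 2h and 0.616 and 0.931 at 6h and were listed at 0 at 20h, against 16.9 and 8.96 TPM at 0h. It was called lower at 20h, where no fold is given. In iMo its highest value was 4.42 TPM, with both libraries of 2h listed at 0, and in AM it was 2.77 TPM. Cox4i2 fell in IM at 2h (-2.82, SE 0.62, adjusted p = 0.000807) and 6h (-2.92, SE 0.62, adjusted p = 0.00141), and it was lower in iMo than in IM at 0h (-2.99, SE 0.62, adjusted p = 0.00178) and higher in IM than in AM at 0h (3.11, SE 0.54, adjusted p = 7.09e-05). With a pseudocount of 0.1 TPM the calls at 2h and 6h and that of iMo against IM were lost, and without the iMo library of 0h A171227 the last had an adjusted p of 0.103. The same 2 IM libraries of 0h held 542 to 718 summed TPM of 8 endothelial markers and 353 to 729 of 8 lung epithelial markers, against 8.27 to 42.2 and 20.7 to 58.9 TPM in the IM libraries of later times, and the part of these cells in the Cox4i2 values was not tested. Cox7a1, known from heart and skeletal muscle, had 1.70 and 3.68 TPM in iMo and 14.8 and 0 TPM in IM at 0h, against 9.71, 14.2, 13.8 and 22.0 TPM in AM. It was lower in iMo than in AM (-2.11, SE 0.66, adjusted p = 0.017), a call lost without the iMo library A171227 (adjusted p = 0.182). The lower level in IM (-1.95, SE 0.66, adjusted p = 0.0295) rested on the IM library listed at 0, without which the fold change was 0.04 (adjusted p = 0.981), and was not called without the AM library D171227 (adjusted p = 0.0723). In iMo Cox7a1 was listed at 0 in both libraries of 6h. Of the other muscle or testis isoforms, Cox6a2 reached 4.65 TPM, Cox8b 8.21 TPM and Cox8c 1.61 TPM at most, and Cox7b2 1.10 TPM, in single libraries.

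**Figure D4:**
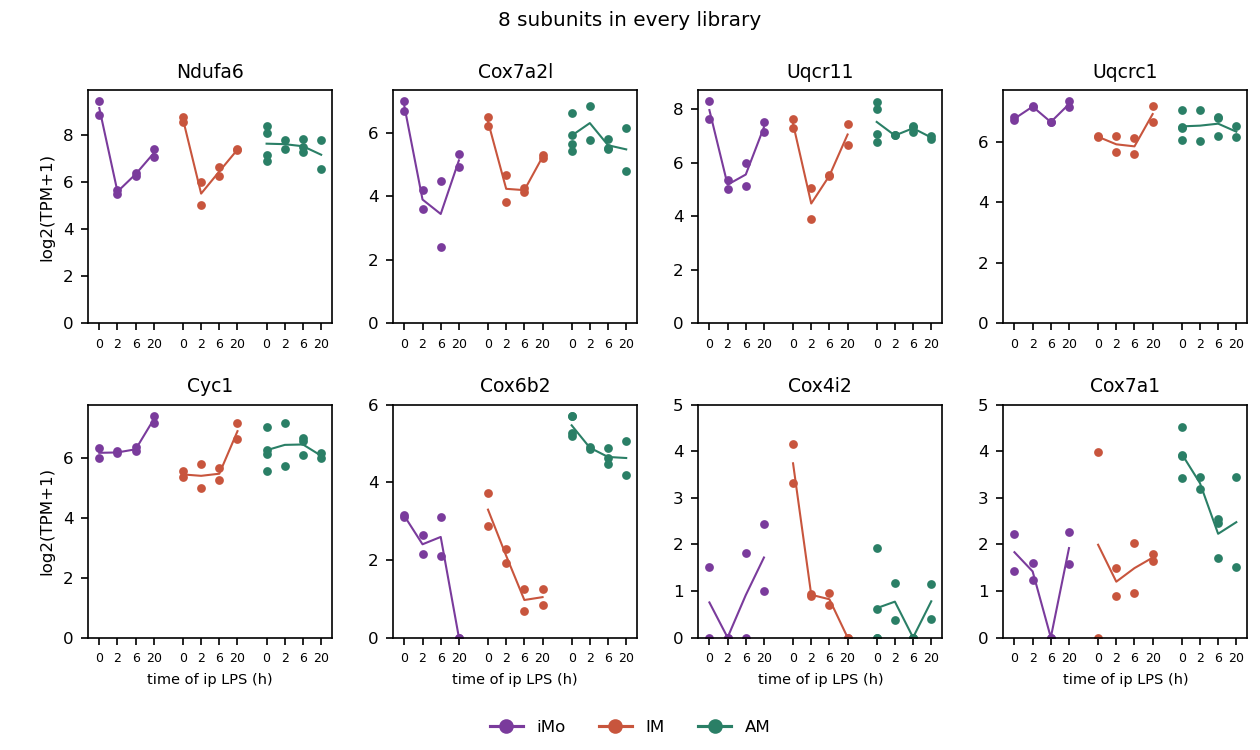
Log2(TPM+1) (vertical axis) of 8 subunits in every library by time of ip LPS in h, for iMo, IM and AM from left to right in each panel; points are libraries and lines join group means. Ndufa6, Cox7a2l and Uqcr11 dip at 2h and 6h in iMo and IM, the group means of Uqcrc1 and Cyc1 move less, and Cox6b2 lies highest in AM, where its lowest value is 17.3 TPM.

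Between 2h and 20h, 24 of 62 subunits rose in iMo and 39 of 62 in IM, in libraries that largely share a title code. In iMo 24 of 62 members were higher at 20h than at 2h and 1 was lower, where 14.7% of all genes were called higher and 10.3% lower, and the members' median fold change was 1.06, or 0.92 relative to an all-gene median of 0.14. All 4 libraries carry the second code. Leaving out the 2h library B161219 left 4 calls, the 20h library A161219 9, and either of the others 13. In IM 39 were higher and 1 was lower, where 31.8% of all genes were called higher and 7.17% lower, with a median of 1.27, or 0.62 relative to an all-gene median of 0.65; without the 20h library B161219 13 were called. In AM limma called 0 members, where 0% of all genes were called higher and 0.0224% lower, 0 members had an unadjusted p under 0.05, and no alternative run gave a call.

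By complex the members that rose in iMo were 13 of complex I, 0 of complex II, 3 of complex III and 8 of complex IV. In IM they were 25, 2, 5 and 7. The tested members of these complexes numbered 35, 4, 9 and 14. Over all genes 14.7% rose in iMo and 31.8% in IM. Uqcr11 showed the largest rise in both cell types, 2.15 (SE 0.47, adjusted p = 0.00169) in iMo and 2.58 (SE 0.47, adjusted p = 0.000261) in IM. Ndufa5, a subunit of the matrix arm, had 34.1 and 47.1 TPM in iMo at 20h, against 8.08 and 8.85 at 2h, and 64.3 and 43.5 TPM in IM at 20h, against 15.6 and 4.56 at 2h. It rose in both (2.12, adjusted p = 0.0107 in iMo; 2.49, adjusted p = 0.00242 in IM), and the call in iMo was lost without the 2h library B161219 (adjusted p = 0.0681) or the 20h library B161219 (0.0895). Ndufb8, a membrane arm subunit often used as a marker of assembled complex I, had 323 and 301 TPM in iMo at 20h, against 96.1 and 85.4 at 2h, and 223 and 357 TPM in IM at 20h, against 46.9 and 50.8 at 2h. Its rise was 1.77 (SE 0.48, adjusted p = 0.00838) in iMo and 2.51 (SE 0.48, adjusted p = 0.000402) in IM, and its 20h values overlapped those of 0h. Ndufa12 had 38.5 and 41.2 TPM in iMo at 20h, against 5.31 and 14.0 at 2h (2.07, SE 0.50, adjusted p = 0.00397), and without the 2h library A161219 the adjusted p was 0.0782. Ndufs6, a zinc-binding subunit needed late in assembly, had 114 and 122 TPM in iMo at 20h, against 34.0 and 32.7 at 2h (1.79, SE 0.46, adjusted p = 0.00581), and without the 2h library B161219 the adjusted p was 0.0541. Ndufs7 rose in IM (2.12, SE 0.49, adjusted p = 0.00207), as did Uqcrc1 (1.00, SE 0.39, adjusted p = 0.0458). Cox6b2 was the member that was lower at 20h than at 2h, in iMo with both libraries of 20h listed at 0 and in IM by 1.07 (adjusted p = 0.0294), a call lost without the 2h library of the first code (adjusted p = 0.181) or either 20h library (0.165 and 0.0624).

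Before LPS 13 subunits were called between iMo and AM, 3 between IM and AM and 1 between iMo and IM. These were 21.0, 4.84 and 1.61% of the 62 tested members, against 2649, 2326 and 631 of all 8937 genes. Members were thus not called more often than other genes in any of these comparisons. In iMo against AM at 0h 11 members were higher and 2 lower, where 16.2% of all genes were called higher and 13.4% lower, with a member median of 0.51 relative to an all-gene median of 0.15. The direction of these calls turned with the scaling, to 4 higher and 7 lower after rescaling without Rn45s and Lars2 and to 4 and 4 under quantile normalization, and without the iMo library B171227 0 were higher and 2 lower. Ndufa6 was among the higher members, with 454 and 683 TPM in iMo against 141, 333, 115 and 266 TPM in AM (1.51, SE 0.41, adjusted p = 0.00596). Ndufb11 had 127 and 179 TPM in iMo, against 43.4, 98.0, 32.6 and 73.3 in AM (1.40, SE 0.40, adjusted p = 0.00855). Uqcrh had 348 and 472 TPM in iMo, against 140.5, 284, 113 and 151 in AM (1.32, SE 0.38, adjusted p = 0.00895). Ndufa3 had 708 and 972 TPM in iMo, against 203, 544, 225 and 534 in AM (1.29, SE 0.41, adjusted p = 0.0192). Each of these 4 lost its call without the iMo library B171227 (adjusted p 0.125 to 0.201), and Ndufa3 also without the iMo library A171227, the AM library of the first code or C171227 (0.0507 to 0.0636). Without the iMo library A171227 7 members were called, without the AM library of the first code 7 and without C171227 8.

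In IM against AM at 0h 1 member was higher (Cox4i2) and 2 lower (Cox6b2 and Cox7a1), where 15.0% of all genes were called higher and 11.0% lower, with a member median of 0.17 relative to an all-gene median of 0.00. The split was 1 higher and 13 lower after rescaling without Rn45s and Lars2, 4 and 9 under quantile normalization and 3 and 6 after centring, and without the AM library A171227 it was 6 higher and 2 lower, without D171227 3 and 1, and without the IM library B171227 0 and 1. In iMo against IM at 0h 0 were higher and 1 lower (Cox4i2), where 0.739% of all genes were called higher and 6.32% lower. Centring gave 2 higher and 1 lower in that comparison, and no member was called without the iMo library A171227 or without either IM library.

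After ip LPS, taken over 2, 6 and 20h with each time weighing the same, the main fit called no subunit higher in iMo or in IM than in AM. The share called lower was 32.3% of members in iMo and 46.8% in IM, against 27.6% and 36.6% of all genes. All iMo libraries of these times carry the second code, while AM and IM also hold libraries of the first. Cell type and code therefore cannot be fully told apart here. With the length trend removed calls stood in both directions, as given below. In iMo against AM 0 members were higher and 20 lower, where 18.3% of all genes were called higher and 27.6% lower, with a member median of -0.35 relative to an all-gene median of -0.10; without the AM library of 20h of the first code 11 were called. In IM against AM 0 were higher and 29 lower, where 17.5% of all genes were called higher and 36.6% lower, with a relative median of -0.26; without the AM libraries of 20h of the first code or of 2h B161219 16 and 17 were called. Rescaling without Rn45s and Lars2 raised these to 32 lower with 2 higher in iMo, and to 55 lower in IM. Cox6b2 differed most, at -3.06 in iMo (adjusted p = 2.25e-11) and -3.35 in IM (adjusted p = 3.8e-12). Cox7a2l was lower in iMo (-1.64, SE 0.31, adjusted p = 8.88e-05), as was Ndufa5 (-1.62, SE 0.33, adjusted p = 0.000269), which had 52.7 and 59.6 TPM in AM at 2h. Cox7a1 was lower in iMo (-1.56, SE 0.43, adjusted p = 0.00409). Uqcr11 was lower in IM (-1.40, SE 0.26, adjusted p = 8.62e-05), as were Ndufv3 (-1.38, SE 0.25, adjusted p = 5.92e-05) and Ndufa5 (-1.32, SE 0.33, adjusted p = 0.00169). In iMo against IM 1 member was higher and 0 lower, where 4.22% of all genes were called higher and 4.91% lower. This was Uqcrc1 (0.79, SE 0.23, adjusted p = 0.028), and leaving out any of 7 single libraries ended the call (adjusted p 0.0547 to 0.111): those of iMo at 2h A161219, 6h A161219 and 20h A161219 and B161219, and those of IM at 2h and 6h of the first code and at 20h A161219. Rescaling gave 20 higher members in that comparison, quantile normalization 13, and centring 4.

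The ip response was also compared gene by gene. For iMo against AM the smallest adjusted p among the 25 members was that of Ndufa6 (adjusted p = 0.00189), whose change in iMo minus that in AM was -3.53 at 2h, -2.70 at 6h and -1.44 at 20h. For IM against AM it was also that of Ndufa6 (adjusted p = 0.0037), with differences of -3.14, -2.11 and -0.82, followed by Cox4i2 and Uqcr11. For iMo against IM 2 members were called, Cox4i2 (adjusted p = 0.00898) and Cox6b2 (0.0177), where 3.75% of all genes were called. Without the iMo library of 0h B171227 the count for iMo against AM was 8. For IM against AM it was 8 without the AM library of 2h B161219, 10 and 11 without the IM libraries of 0h A171227 and B171227, and 29 and 31 without the AM libraries of the first code at 2h and 20h. For iMo against IM it was 0 without the iMo or IM library A171227 of 0h, and 1 without IM 0h B171227, iMo 6h A161219, either iMo library of 20h, IM 6h A161219 or IM 20h B161219.

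Transcript length moved with the changes. The members' transcripts had a median length of 756.5 nt (315 to 3171 nt), against 2628 nt over all tested genes with a length. In iMo at 2h the fold change and the length correlated at a Spearman rho of 0.55 over the 62 members and 0.31 over 8567 tested genes. In IM at 2h rho was 0.41 over the members and 0.20 over all genes, and in AM 0.28 and -0.11; genes of 1 library share its chemistry and its input, so no p is given. Among transcripts of at most 600 nt the 21 members had a median of -2.14 in iMo at 2h, against -1.61 for the other 144 genes of that length. In IM they had -1.85 against -1.47, and in AM -0.26 against -0.05. Without the 21 ribosomal protein genes among those 144, the other genes had -1.54 in iMo, -1.64 in IM and -0.07 in AM. Among those of 601 to 900 nt the 16 members had -1.88 in iMo and -1.84 in IM, against -1.37 and -1.47 for the other 385 genes. In iMo at 2h 50 of the 62 members lay below the median of the other genes of their length class, and the median difference from it over all 62 was -0.51. In IM at 2h 47 did, with a median difference of -0.33 over all 62.

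With the trend of each library on transcript length removed, an alternative chosen after the data were seen, fewer members were called at 2h and 6h against 0h and for 20h against 2h in iMo and IM, and calls stood in both directions. In iMo 3 were then higher and 9 lower at 2h, 4 and 13 at 6h, and 5 and 6 at 20h. In IM 2 were higher and 10 lower at 2h, 2 and 5 at 6h, and 3 and 3 at 20h. For 20h against 2h, 8 were higher and 1 lower in iMo and 11 and 1 in IM. Ndufa6 stayed lower at 2h in iMo (-1.80, adjusted p = 2e-05) and in IM (-1.49, adjusted p = 0.000109), and Cox7a2l in iMo (-1.83, adjusted p = 0.00209), while Uqcr11 in iMo did not stay called (-0.76, adjusted p = 0.0779). In the comparisons over the ip times 9 members were then higher and 8 lower in iMo against AM, and 3 and 12 in IM against AM. At 0h they were 7 and 7 in iMo against AM and 4 and 8 in IM against AM, and for the F tests 9 and 5 members were called against AM. The part of transcript length in the changes of the other members was not tested further.

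**Figure D5:**
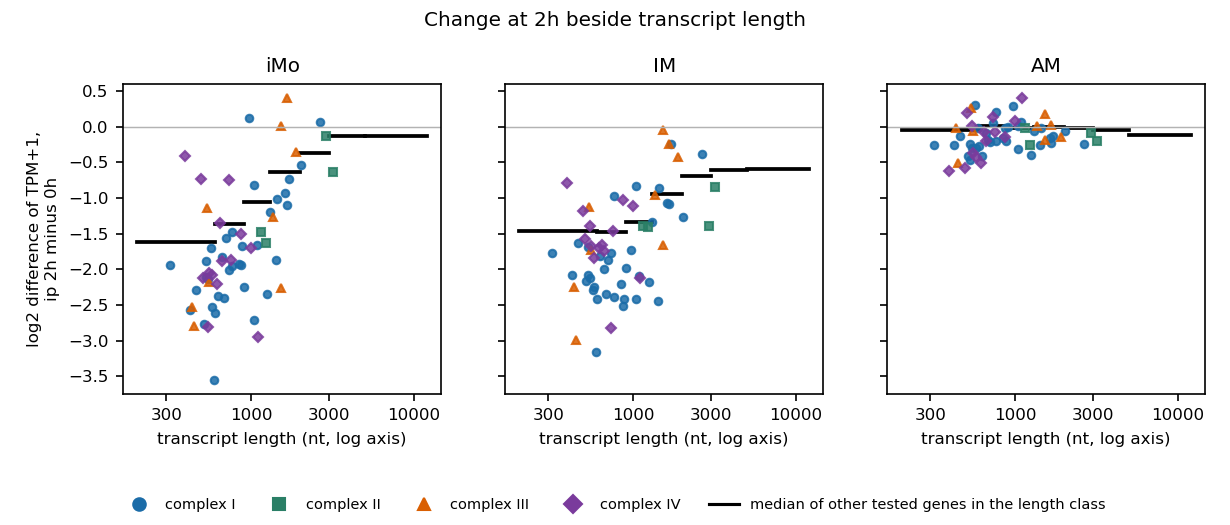
Log2 difference of TPM+1 between 2h of ip LPS and 0h (vertical axis) against transcript length in nt (horizontal log axis) for the 62 subunits in iMo, IM and AM; symbols mark the complex, and the black line is the median of the other tested genes in each length class. In iMo and IM most subunits lie below the line (50 and 47 of 62), and short transcripts lie lower than long ones.

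Other genes of the same organelle were counted from lists chosen with earlier results of these data known. Beside their counts, 24.0% of all tested genes were lower in iMo and 40.8% in IM at 2h, and 14.7% and 31.8% were higher at 20h than at 2h. Of 15 tested subunits of ATP synthase, which uses the proton gradient, 11 were lower in iMo and 11 in IM at 2h, with Atp5k at -3.49 in iMo (adjusted p = 0.000527) and Atp5l at -3.11 in IM (adjusted p = 0.000984). Ndufa4, now placed in complex IV, and Ndufab1, the acyl carrier protein that Ndufa6 binds, were both lower in iMo and IM at 2h, with Ndufab1 at -3.36 in iMo (adjusted p = 0.000291). Of 8 assembly factors of complexes II and III 4 were lower in iMo and 4 in IM at 2h, among them Uqcc2, needed for cytochrome b, at -3.32 in iMo (adjusted p = 8.22e-05) and -3.35 in IM (adjusted p = 3.84e-05). Of 18 complex IV assembly factors 8 were lower in iMo and 8 in IM, including Coa6, a copper-delivery factor (-3.17 in iMo, -3.19 in IM), and Cox15, a heme A synthase, was higher in iMo (0.98, adjusted p = 0.0209). Of 13 complex I assembly factors 3 were lower in iMo and 6 in IM at 2h, shares near those of all genes. Of 19 genes of pyruvate entry and the citric acid cycle 5 were lower in iMo and 7 in IM at 2h, also near those shares, and 1 and 11 were higher at 20h than at 2h, with Idh2, mitochondrial isocitrate dehydrogenase, at 2.00 in iMo (adjusted p = 0.00681) and 2.71 in IM (adjusted p = 0.000465). Of 76 mitochondrial ribosomal proteins 35 were lower in iMo and 40 in IM at 2h, and 18 and 30 were higher at 20h than at 2h. Of 12 regulators of mitochondrial biogenesis and mtDNA factors 2 were lower in IM at 2h, and in iMo limma called 0, with 0 at an unadjusted p under 0.05. Relative to all genes the list medians at 2h were -1.10 in iMo and -0.69 in IM for ATP synthase, -0.51 and -0.38 for the mitochondrial ribosome, -0.14 and -0.06 for the citric acid cycle and 0.54 and 0.32 for the biogenesis regulators. In AM limma called 0 genes of these lists at 2, 6 or 20h against 0h, with 0 to 7 in a list at an unadjusted p under 0.05.

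The promoters of 52 of the 66 members matched an entry in RefSeq's table (GRCm38.p6, 250 bases before to 50 after the start, 27025 genes), and motifs were searched on both strands by their letters. The NRF1 motif, bound by a regulator of nuclear genes for mitochondria, was in 11 members (21.15%), against 4.784% of all promoters. The ETS motif CCGGAAG was in 11 members (21.15%), against 9.121%, and the YY1 motif AAGATGGCG in 5 (9.615%), against 1.495%. The CCAAT box was in 40.38% of members and 37.92% of all promoters, and TATAAA in 11.54% and 14.16%. Among the 36 members with a promoter that were lower at 2h in both iMo and IM, 8 held the NRF1 motif (22.22%), 10 the ETS motif (27.78%) and 3 the YY1 motif (8.333%). Among the 6 called in neither cell type at 2h, the motifs were in 1, 1 and 2 promoters. The 13 subunits encoded by mitochondrial DNA were not analysed here. A match describes the letters of the window and not binding.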

How the data were processed

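RNA of sorted lung cells was sequenced in 45 libraries, of which the 27 of 0h and ip LPS were used; the 18 columns of nasal LPS correlated with these at only 0.0097 to 0.0250 across genes and were left out. The values are TPM in the authors' deposited table, aligned with STAR to mm10 and counted with HOMER per the submitters' processing notes. Versions and counting settings: not given in the sources used here. TPM keeps no depth, so no counting interval is given. Column sums were 331473 to 551635 TPM, and Rn45s took 4.33 to 33.3% of a column, with a median of 29.6% under the first title code, 12.0% under the second and 6.27% under the third. The labels name 20h and the series text 22h; 20h was used.

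Values were taken as log2(TPM+1) of the deposited TPM and fitted in R 4.3.3 with limma 3.58.1 (eBayes with an intensity trend), 1 mean per group over all 12 groups, with contrasts and moderated F tests adjusted by Benjamini-Hochberg over 8937 genes. Transcript length is the median over a gene's RefSeq-matched transcripts in GENCODE vM21. The model was run on simulated data with a set of genes raised, independent noise and no shift by code, library or length. That run does not speak for calls made under such shifts. The members and gene lists were chosen with earlier results of these data known, and the split of complex III subunits after the values were seen. 1 complex I member stays in all counts and medians but is not reported by name or shown in the heat map. Named were, per comparison, up to 4 called members of largest change in each direction, the Sdh genes, the alternative isoforms and the highest member of each complex; in other lists up to 2 called genes per direction were named. Other members were named after their values were seen. Alternatives were a pseudocount of 0.1 TPM, no filter, rescaling without Rn45s and Lars2, quantile normalization, centring, array weights, the title code as covariate, a replicate block, each library left out in turn and, added later, removal of the length trend.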

Additional observations from a re-analysis of the deposited data

Results flagged for a closer look

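The test of the difference itself marked 3 comparisons of the ip response between cell types, each over 2, 6 and 20h against 0h. Of the 62 tested subunits, 25 differed between iMo and AM, 18 between IM and AM and 2 between iMo and IM (limma F test, adjusted p under 0.05). Over all tested genes the shares called were 17.3%, 26.5% and 3.75%, against 40.3%, 29.0% and 3.23% of the subunits, so the last 2 counts are near the shares of all genes. The first 2 share the AM libraries and the last 2 the IM libraries, so the counts are not independent. The title codes are not spread alike over the cell types, so code and response cannot be fully told apart in these tests. Among 36 quantities examined in the 4 AM libraries of 0h, the one group large enough, none had a library apart from the others by Dixon's criterion, which chance alone would meet in about 1 group of 20.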

How the results depend on the processing

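The main limits were 2 libraries in each iMo and IM group, a title code that cannot be told apart from time against 0h in iMo and IM, TPM that keep no depth, and the share of each library held by Rn45s. The counts in IM and iMo at 2h kept within 1.5 times of 48 and 44 when any 1 library was left out (39 to 45 and 34 to 39), and no library left out gave a call in AM. Counts that moved further or turned direction follow, as members called of those tested, and the cause was not tested except where fewer samples were fitted. With a pseudocount of 0.1 TPM iMo against IM at 0h had 0 and the response of iMo against IM 1. With no filter IM against AM at 0h had 3 (2 higher, 1 lower), iMo against AM at 0h 8, IM at 20h 2, IM at 20h against 2h 26, iMo against IM over the ip times 0, and the response of iMo against AM 14. Rescaled without Rn45s and Lars2 IM against AM at 0h had 14 and iMo against AM at 0h 11 (4 higher, 7 lower), iMo 25 at 6h, 8 at 20h (7 higher, 1 lower) and 51 for 20h against 2h, IM against AM over the ip times 55, iMo against AM 34, iMo against IM 20, and the response of IM against AM 32; the all-gene median there was 0.13, 0.31 and 0.33 in iMo at 2, 6 and 20h, -0.63, -0.27 and 0.08 in IM, 0.14 and 0.10 in AM at 6 and 20h, and -0.23 and -0.33 for IM and iMo against AM at 0h. Quantile normalization gave 13 for IM against AM at 0h, 8 for iMo against AM and 2 for iMo against IM at 0h, 8 in IM at 20h, 9 in iMo at 20h (5 higher, 4 lower), 46 in iMo at 20h against 2h, and 45, 36 and 13 over the ip times for IM against AM, iMo against AM and iMo against IM. Centring gave 9, 21 and 3 at 0h for the same pairs (the last 2 higher, 1 lower), 31 in IM at 2h, 15 at 6h and 17 for 20h against 2h, 18 for IM against AM and 4 for iMo against IM over the ip times, and responses of 8 for IM against AM and 1 for iMo against IM. Array weights gave 9, 22 and 3 at 0h, 7 in AM at 6h, 13 in IM at 20h and 28 in iMo at 20h. With the title code as covariate IM against AM at 0h had 7, IM 6, 1 and 1 at 2, 6 and 20h, iMo 2, 3 and 1, and the response of IM against AM 29. With the length trend removed the counts were 12 and 2 for IM against AM and iMo against IM at 0h, 12 and 7 in IM at 2h and 6h, 12 and 17 in iMo, 12 in IM and 9 in iMo for 20h against 2h, 15, 17 (9 higher, 8 lower) and 6 over the ip times, and 5 and 9 for the responses of IM and iMo against AM.

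The replicate block gave 0 members in IM and in iMo at 2, 6 and 20h, 1 (lower) for iMo against AM at 0h and 11 for the response of iMo against AM, while 20h against 2h had 38 in IM and 35 in iMo, where the fit without it had 40 and 25. The fold changes moved too, with Ndufa6 at -0.36 under the block in iMo at 20h (-1.91 without it) and -0.73 in IM at 6h (-2.22), and Cox4i2 at -3.41 in IM at 2h (-2.82). The labels share only a letter and a code. Of 62 pairs that share both, 28 had a correlation of deviations over 0.1 (median 0.0836), against 19 of 55 with the same code and another letter (0.0153) and 34 of 215 with another code (-0.0185), so not every pair deviated together. In a group of 2 libraries the deviations from the group mean mirror each other, so these pairs are not separate observations.

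When 1 library at a time was left out, the counts ran from 1 to 8 for IM against AM at 0h, 2 to 18 for iMo against AM, 0 to 1 for iMo against IM, 6 to 20 in IM at 6h, 1 to 2 at 20h, 21 to 34 in iMo at 6h, 1 to 9 at 20h, 13 to 30 in IM and 4 to 13 in iMo for 20h against 2h, 16 to 34, 11 to 26 and 0 to 2 over the ip times, and 8 to 31, 8 to 32 and 0 to 2 for the responses of IM against AM, iMo against AM and iMo against IM. Cox7a1 in IM against AM at 0h turned from -1.95 to 0.04 without the IM library B171227 (-3.94 to 0.0402 over all libraries left out).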
